A study of Mus musculus with 4 samples.

Results

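This account compares microRNAs (miRNAs) in mouse lower molar tooth germs at embryonic day 16 (E16) with those at embryonic day 14 (E14), the interval from cap to bell stage. It rests on 2 of the 4 arrays of the series, 1 per stage, chosen by the age in their labels. Both groups are mandibular molar tooth germs from untreated embryos of the outbred ICR strain, and the remaining arrays hold the same tissue at E11 and E12. The sources used here do not state the number of embryos behind each array. A whole tooth germ holds dental epithelium and mesenchyme together, so a level is an average over both, and in such bulk RNA more cells of a type and more RNA per cell cannot be told apart. With 1 array a stage there is no replicate: no p-value can be given, and every error printed with ± is the measurement error stated for the arrays, which leaves out how embryos and litters vary.

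At cap stage the dental epithelium folds around a condensed mesenchyme, the dental papilla. At bell stage the epithelium separates into layers, among them the inner enamel epithelium that gives rise to ameloblasts, while the papilla gives rise to odontoblasts and the surrounding follicle to the supporting tissues. A miRNA is a short RNA that represses mRNAs by pairing with them chiefly through its seed, bases 2 to 8 from the 5′ end, so miRNAs with one seed can share targets. The miR-200 family and miR-203 are known from epithelia, miR-203 above all from differentiating stratified epithelium, and the miR-29 family is known for targeting collagens and other matrix genes.

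The epithelial and miR-29 miRNAs are shown first because they include the largest differences upward and their sequences fall into groups by seed. Mature sequences are from RefSeq (GRCm38.p6), written 5′ to 3′ with the seed in capitals; older probe names that give no arm were read as the customary major arm. miR-203 stands alone by its seed, and the miR-200 family has 2 seeds that differ in 1 base.
miR-203: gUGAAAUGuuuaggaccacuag
miR-141: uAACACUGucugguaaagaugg
miR-200a: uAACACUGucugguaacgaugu
miR-200b: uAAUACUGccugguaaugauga
miR-200c: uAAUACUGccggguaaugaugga
miR-429: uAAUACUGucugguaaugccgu
miR-29a: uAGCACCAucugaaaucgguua
miR-29b: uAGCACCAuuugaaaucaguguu
miR-29c: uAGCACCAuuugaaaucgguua

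The miRNAs that were lower had a higher median G+C content than the others but included some low in it. The following are shown because they are among the 15 largest differences downward; miR-494, miR-466i, miR-467f and miR-1187 are below 50% G+C.
miR-671-5p: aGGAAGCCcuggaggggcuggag
miR-483: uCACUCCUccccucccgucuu
miR-125a-3p: aCAGGUGAgguucuugggagcc
miR-370: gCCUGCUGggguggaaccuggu
miR-494: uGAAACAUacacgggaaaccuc
miR-188-5p: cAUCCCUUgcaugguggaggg
miR-1224: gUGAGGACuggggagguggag
miR-466i: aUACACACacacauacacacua
miR-2861: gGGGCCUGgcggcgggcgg
miR-467f: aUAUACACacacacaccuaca
miR-1187: uAUGUGUGuguguauguguguaa

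The arrays carry 696 miRNA probes and detected 249 at E14 and 250 at E16; 231 were detected on both, 18 at E14 alone and 19 at E16 alone. Detected signals ran from 5.69 to 69866 at E14 and from 6.51 to 73629.5 at E16, with a median error of 9.04% and 9.16% of the signal. A level below is the log2 signal relative to the array's 75th percentile over the 197 miRNAs detected on all 4 arrays, and a difference is E16 minus E14 on that scale. A miRNA is called higher or lower where the difference is at least 2-fold, that is 1 on the log2 scale, which is a rule of size only. The E14 array stands apart from the other arrays in a class of entries named miR-2132 to miR-2146 and miR-689, and in other features given further below. The class held 28.2% of its summed miRNA signal against 7.23%, 5.74% and 8.24% at E11, E12 and E16. These entries, several of which were later withdrawn from the miRNA registry, are therefore read apart from the others, and values at E12 are given beside the main results.

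Of the 231 names detected on both arrays, 17 were at least 2-fold higher at E16 (7.36%) and 31 at least 2-fold lower (13.4%), around a median of -0.06. Of the 31 lower, 11 were entries read apart. Over the remaining 220 names, 17 were higher (7.73%) and 20 lower (9.09%), and the median was -0.02. The split depends on the scaling. On the deposited signals the counts were 36 and 28 and the median 0.30. With the entries read apart left out of the 75th percentile, they were 7 and 52 and the median -0.42. The counts were 7 and 50 with the percentile taken over the miRNAs on both arrays, 28 and 29 with it taken over all probes, and 30 and 29 with scaling to the median. Differences are therefore given with their range over 8 scalings where the call turns on it. Among the 8, quantile normalization and the authors' series table coincide, so 7 are distinct. Of the 17 higher, 7 passed 2-fold under all 8, namely miR-203, miR-141, miR-29a, miR-872, miR-875-5p, miR-376a and miR-503, and of the 20 lower, 17 did. Of these 7, miR-29a (13.0) and miR-872 (13.5) were dim at E14, under a signal of 20.

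**Figure D1:**
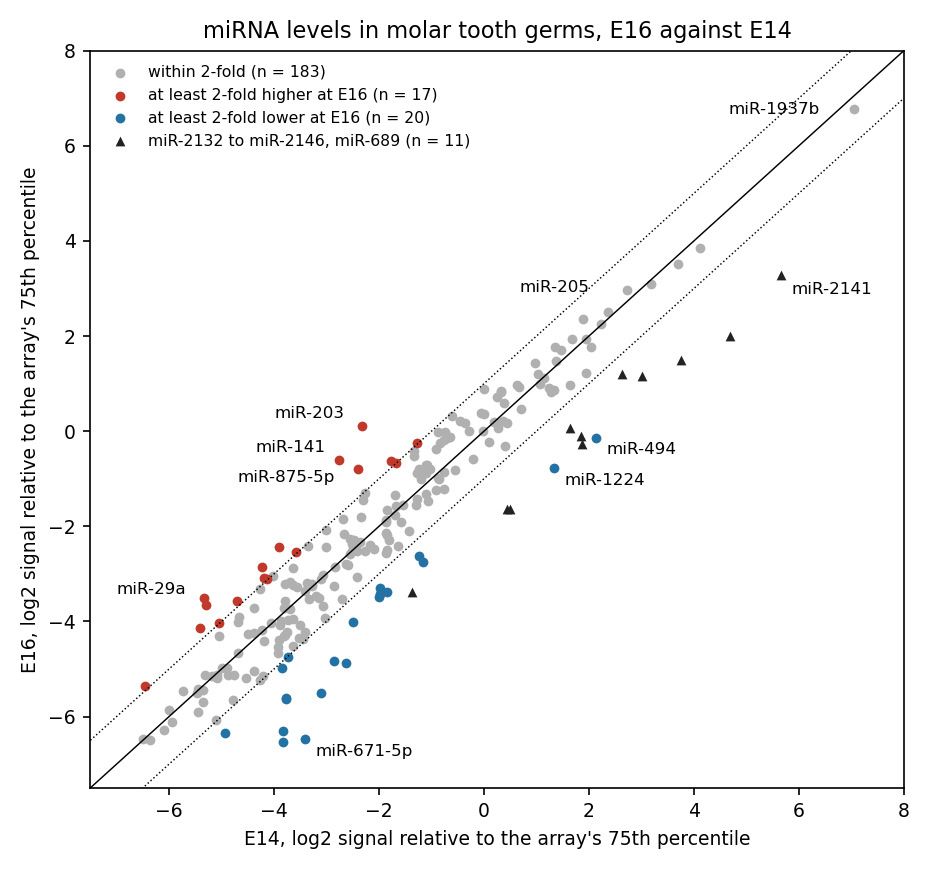
Level of each of the 231 miRNAs detected on both arrays at E14 (x axis) and E16 (y axis), as log2 signal relative to the array's 75th percentile; the solid line marks equal levels and the dotted lines a 2-fold difference. The 17 higher miRNAs (red), 20 lower (blue) and 11 entries read apart (black triangles, all lower) are set off from the 183 within 2-fold.

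Among the miRNAs listed as epithelial the differences ran upward. All 8 members of the miR-200 and stratified-epithelium lists detected on both arrays had positive differences under the main scaling. Of the 8, 4 were at least 2-fold higher and 0 lower, beside 7.73% higher and 9.09% lower over the 220 names not read apart. The median was 0.79, against -0.02 over those 220 names. The directions of miR-205, miR-200b and miR-200c turn under the scalings that set E16 lowest. miR-203 (chr12:112130927-112130948, plus strand, GRCm38.p6), which restrains proliferation in stratified epithelium, had signals of 73.0 at E11, 119.6 at E12, 106 ± 9.21 at E14 and 724.5 ± 52.99 at E16. E16 stood above the other 3 stages, which lay between 73.0 and 119.6. The difference was 5.34-fold (2.42 ± 0.16, 2.05 to 2.77 over the 8 scalings), and against E12 it was 1.83 ± 0.17. Its minor arm miR-203* was detected at E16 alone, at 6.51 ± 2.17, the lowest detected signal of that array. miR-875-5p was not detected at E11 or E12 and had signals of 100.5 ± 6.51 and 387 ± 21.7, a difference of 1.59 ± 0.12 (1.23 to 1.94). miR-205, which marks basal epithelial cells, was the brightest of the group at 3517 and 5317 and differed by 0.24 (-0.12 to 0.61 over the scalings), so its direction depends on the scaling.

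Within the miR-200 family the members that passed 2-fold under the main scaling shared a seed rather than a genomic cluster. miR-141 passed under all 8 scalings but miR-200a under 4 only, so the grouping by seed turns on the limit. miR-141, undetected at E11, had signals of 31.0 at E12, 77.9 ± 7.77 at E14 and 441.3 ± 34.6 at E16, 4.42-fold higher (2.15 ± 0.18, 1.78 to 2.50 over the scalings). miR-200a had signals of 43.3, 116.8, 219.5 ± 18.1 and 570.4 ± 45.3, 2.03-fold higher (1.02 ± 0.17, 0.66 to 1.38). Both carry the seed AACACUG and have 20 of 22 bases in common; hybridisation of one to the other's probe was not tested. Their differences lay 1.12 apart. The members with the seed AAUACUG lay lower, miR-429 at 0.55, miR-200c at 0.29 and miR-200b at 0.22. The hairpins of miR-141 (mature arm at chr6:124717917-124717938, minus strand, GRCm38.p6) and miR-200c (chr6:124718324-124718346, minus strand) lie 407 bases apart and are commonly transcribed together. The difference of miR-141 exceeded that of miR-200c by 1.86 ± 0.24, a value that no constant scaling alters. In the other cluster, on chromosome 4, miR-200a exceeded miR-200b, 774 bases away, by 0.80 ± 0.22 and miR-429, 995 bases away, by 0.47 ± 0.22.

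miR-31 and its minor arm, which come from 1 hairpin and are known from hair and skin epithelium, had similar differences. miR-31 had signals of 16.2, 130.2, 525.2 ± 38.3 and 1257 ± 91.7 and a difference of 0.90 ± 0.15, just under 2-fold. miR-31* had signals of 45.0 at E12, 154.5 ± 12.1 and 439.4 ± 32.1 and a difference of 1.15 ± 0.15 (0.79 to 1.51). The gap of 0.25 ± 0.21 between the arms is near its measurement error. Both were still lower at E12, and miR-31* was 2.52 ± 0.25 higher at E16 than at E12.

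The miR-29 family was detected at these stages and not at E11 or E12. miR-29a had signals of 13.0 ± 3.77 and 59.5 ± 7.27, 3.56-fold higher (1.83 ± 0.45, 1.47 to 2.61 over the scalings). miR-29c was detected at E16 alone at 45.3 ± 6.69, at least 6.22-fold higher, and miR-29b at E16 alone at 14.3 ± 4.38, at least 1.97-fold higher; for a bound, the dimmest detected signal on the E14 array stands in for the undetected value, after scaling. All 3 share the seed AGCACCA, and miR-29a and miR-29c have 21 of 22 bases in common, and hybridisation of one to the other's probe was not tested. miR-29a (chr6:31062673-31062694, minus strand, GRCm38.p6) and a copy of miR-29b lie on chromosome 6, and miR-29c and a second copy of miR-29b on chromosome 1. The 3 minor-arm probes of the family were not detected on either array.

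**Figure D2:**
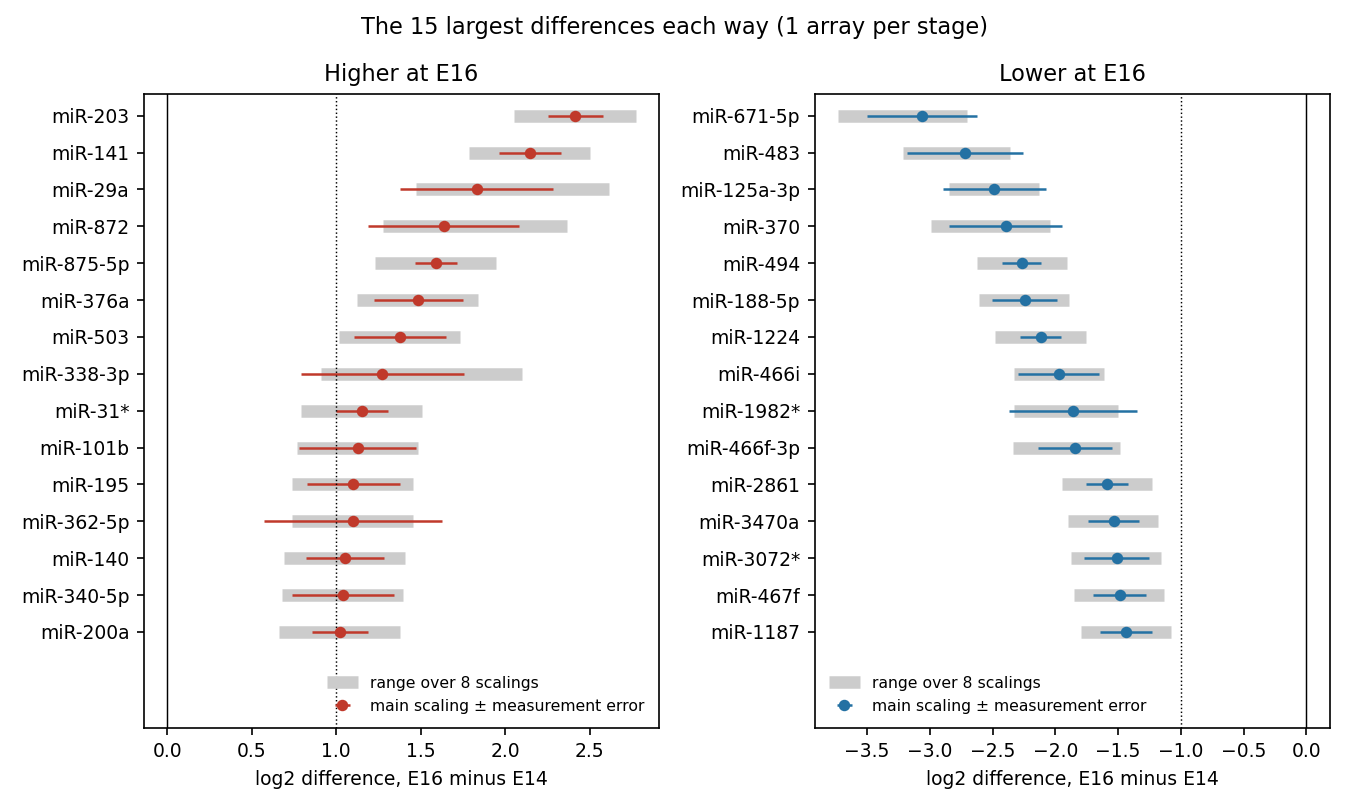
Log2 difference, E16 minus E14, of the 15 largest differences each way outside the entries read apart; points and thin bars give the main scaling ± the measurement error of 1 array per stage, grey bars the range over the 8 scalings, and dotted lines 2-fold. miR-203 (2.42) and miR-141 (2.15) lead the miRNAs higher at E16, and miR-671-5p (-3.06) those lower.

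Of the 17 miRNAs higher at E16, 13 were detected at E12. Of these 13, 10 had a lower scaled level at E14 than at E12, and 4 were at least 2-fold higher at E16 than at E12. Lower levels at E14 than at E12 were common. Over the 201 names not read apart and detected at both, the median was -0.44 (quartiles -0.81 and 0.13). A low E14 level is also part of how the 17 were chosen. The choice of the earlier stage therefore matters for them. miR-872 had signals of 32.5, 13.5 ± 3.80 and 53.6 ± 7.02 at E12, E14 and E16, which gives 1.64 ± 0.45 from E14 but -0.05 ± 0.36 from E12. miR-376a had 62.1, 35.04 ± 5.63 and 125.5 ± 11.0, 1.48 ± 0.26 from E14 and 0.25 ± 0.22 from E12. miR-340-5p had 52.5, 29.9 ± 5.44 and 78.7 ± 8.08, 1.04 ± 0.30 from E14 and -0.18 ± 0.25 from E12. These 3 dipped at E14 and at E16 were back near or a little above their E12 levels. miR-503, a cell cycle regulator, differed in that respect. It had 28.1, 28.3 ± 4.53 and 93.9 ± 9.32, 1.38 ± 0.27 from E14 (1.02 to 1.73 over the scalings) and 0.98 ± 0.31 from E12.

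miR-338-3p, undetected at E11 and E12, was at 12.5 ± 3.75 and 38.6 ± 5.66 (1.27 ± 0.48). The cartilage-associated miR-140 was at 44.0 ± 5.91 and 116.7 ± 10.2 (1.05 ± 0.23). miR-101b, which can target the histone methyltransferase Ezh2, was at 20.3 ± 4.10 and 56.8 ± 7.28 (1.13 ± 0.34). miR-362-5p was the dimmest, at 6.01 ± 1.87 and 16.5 ± 3.15 (1.10 ± 0.53). Each of these 4 fell under 2-fold with the entries read apart left out of the percentile. At the threshold, miR-30e (1.01) and miR-185 (1.02) lay just inside, and the leukocyte miR-223 (0.98) and miR-22 (0.96) just outside.

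Families that regulate the cell cycle and differentiation lay mostly within 2-fold, as did 183 of all 231 names. The let-7 family, which accumulates as embryonic cells differentiate, had 0 of 9 members past 2-fold in either direction and a median of 0.47, positive under all 8 scalings (0.11 to 0.83). Its members share the seed GAGGUAG and lay between -0.27 (let-7e) and 0.54 (miR-98); 8 of the 9 were above 0, and 7 of them by more than 2 measurement errors. let-7f had signals of 1942 and 3485 (0.49 ± 0.16), and let-7i 1035 and 1836 (0.47 ± 0.15). let-7e was the exception, at 716 and 760.1. The miR-17-92 cluster and its paralogs, known for driving proliferation, had 0 of 13 members past 2-fold and a median of -0.03 (-0.39 to 0.33 over the scalings), from miR-92a at -0.49 to miR-19a at 0.59.

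In the miR-15, miR-16 and miR-322 family, which targets cyclins, 2 of 8 members were higher and 0 lower, beside 7.73% and 9.09% of the names not read apart. The family's median was 0.51 (0.15 to 0.87 over the scalings). miR-195 was at 29.0 ± 4.58 and 79.5 ± 8.48 (1.10 ± 0.28), and its cluster partner miR-497 at 38.1 and 73.0 (0.58 ± 0.27). Members with the one seed AGCAGCA spread from miR-15b at -0.23 to miR-195 at 1.10. miR-503 differs from these by 1 seed base. On the X chromosome it exceeded miR-322, 279 bases away, by 0.94 ± 0.31 and miR-351, 712 bases away, by 1.73 ± 0.40. The miR-30 family had 1 of 7 higher and a median of 0.39 (0.02 to 0.74), and the miR-26 and miR-101 list 1 of 4 higher and a median of 0.74 (0.38 to 1.10).

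The lists of mesenchymal miRNAs had medians of 0.56 and -0.22 against -0.06 over all 231 names. In the list of miR-140, miR-143 and miR-145, known from cartilage and smooth muscle, 1 of 3 members detected on both arrays was higher, and the median was 0.56 (0.20 to 0.92 over the scalings). miR-140 stood at 1.05, miR-143 at 65.8 ± 6.88 and 124.5 ± 10.7 (0.56 ± 0.20), and miR-140* at 0.50. The Dnm3os transcript encodes miR-199a and miR-214, which are abundant in embryonic mesenchyme. The list of these together with miR-199b* had 0 of 5 members past 2-fold. Its median of -0.22 turned positive on the deposited signals (0.14), with scaling to the median (0.03) and under quantile normalization (0.10). miR-199a-3p was at 4824 and 5760 (-0.10 ± 0.15), miR-199b* at 2481 and 3234 (0.03 ± 0.15) and miR-214 at 1636 and 1320 (-0.67 ± 0.15). miR-214 was negative under all 8 scalings. In the family of miR-125, miR-99 and miR-100, 0 of 6 were higher and 1 lower, with a median of -0.26, also turning positive on the deposited signals (0.10). Its most abundant member miR-125b-5p was at 6851 and 7714 (-0.19), and miR-99a at 386 and 779 (0.66). The clusters that hold miR-23, miR-24 and miR-27 had 0 of 5 past 2-fold and a median of 0.16 (-0.20 to 0.60), with miR-27a furthest up at 346 and 841 (0.92).

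**Figure D3:**
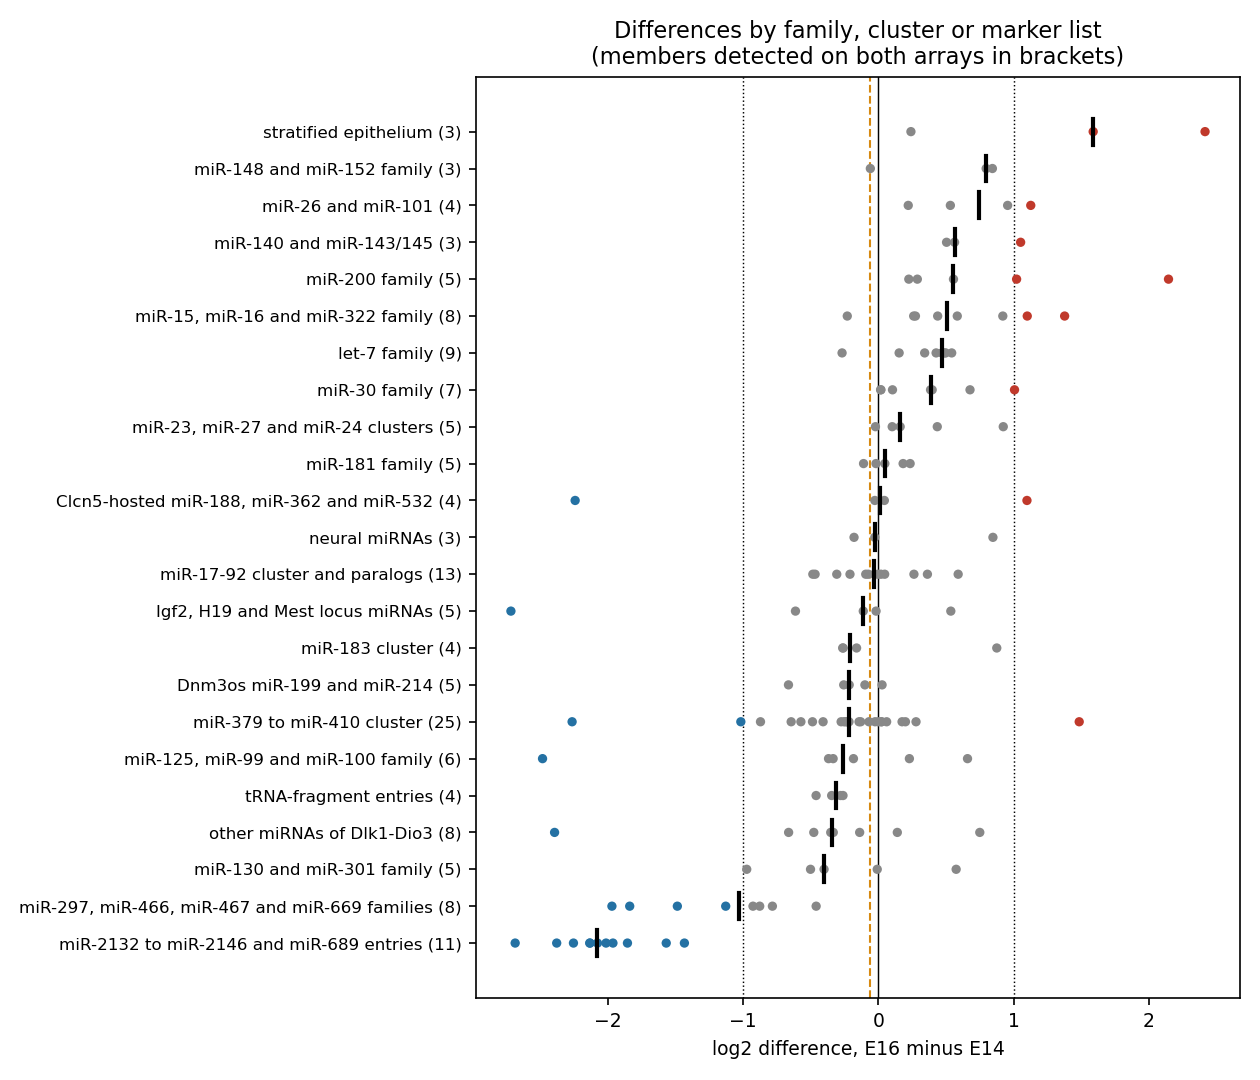
Log2 difference, E16 minus E14, of each member detected on both arrays, by list; black bars are list medians, the dashed line the median of all 231 names (-0.06), the dotted lines 2-fold, and red and blue points pass it. Of the lists drawn, those with at least 3 such members, the stratified-epithelium list has the highest median (1.59, 3 members), and the entries miR-2132 to miR-2146 with miR-689 the lowest (-2.08, 11 members).

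The imprinted Dlk1-Dio3 region on chromosome 12, whose miRNAs are made from the maternal chromosome, had single members far from the others. Of 33 listed members detected on both arrays, 29 were within 2-fold (183 of the 220 names not read apart were). The region's listed members had 24 of 33 below 0 and a median of -0.23, against -0.02 over those 220 names. Both of its lists had a negative median (-0.34 and -0.22) that turned positive on the deposited signals (0.01 and 0.14), the second also with scaling to the median (0.03). miR-494 had signals of 272, 231.2, 2308 ± 174 and 614.1 ± 46.7 over the 4 stages in order of age. It was 4.81-fold lower at E16 than at E14 (-2.27 ± 0.15, -2.63 to -1.91 over the scalings) and 0.64 ± 0.16 above E12; its mature arm lies at chr12:109715367-109715388, plus strand, GRCm38.p6. miR-370 had 13.9, 15.0, 61.4 ± 6.65 and 14.9 ± 4.404, a difference of -2.40 ± 0.45, and lay -0.77 ± 0.63 from E12. Both were brightest at E14. miR-376a lay at the opposite end at 1.48, and its difference exceeded that of miR-376b, 316 bases away, by 1.49 ± 0.34, that of miR-300, 539 bases away, by 1.71 ± 0.32, and that of miR-494, 8457 bases away, by 3.75 ± 0.31. miR-136, from the same region, was detected at E16 and not at E14 (80.5 ± 8.33, at least 11.1-fold higher), and also at E12 (20.01). Some other names of the region are in neither list. Of these, miR-3072*, 4129 bases from miR-410, was lower (-1.51 ± 0.26). miR-432 (14.9 ± 3.43) and miR-770-3p (5.69 ± 1.86) were detected at E14 and not at E16.

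miR-483 and miR-483* come from 1 hairpin in an intron of Igf2, the gene of a fetal growth factor. miR-483 had signals of 32.4, 8.04, 37.2 ± 4.05 and 7.24 ± 2.199, 6.58-fold lower at E16 (-2.72 ± 0.47, -3.21 to -2.36 over the scalings). miR-483* was at 34.6 ± 4.95 and 28.9 ± 5.06 (-0.61 ± 0.33), so the arms differed by 2.10 ± 0.57. A like gap separated the arms of miR-125a. miR-125a-3p was at 37.2 ± 4.04 and 8.50 ± 2.24 (-2.49 ± 0.41), miR-125a-5p at 455 and 451.3 (-0.37 ± 0.15), and the gap was 2.12 ± 0.44. In the Clcn5 host gene on the X chromosome miR-188-5p, at 84.9 ± 5.54 and 23.0 ± 3.82, was lower (-2.24 ± 0.26) while miR-362-5p, 6012 bases away, was higher, a gap of 3.34 ± 0.59.

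The remaining large differences downward were of miRNAs that were brightest at E14. miR-671-5p (chr5:24592132-24592154, plus strand, GRCm38.p6) was undetected at E11 and E12, at 49.6 ± 4.37 at E14 and at 7.60 ± 2.21 at E16, 8.35-fold lower (-3.06 ± 0.44, -3.73 to -2.71 over the scalings). miR-1224 had signals of 386.5, 341.1, 1332 ± 105 and 393.5 ± 31.4 (-2.12 ± 0.16), and miR-2861 77.8, 73.6, 236 ± 17.4 and 100.5 ± 9.21 (-1.59 ± 0.17). For both miRNAs E14 stood above the other 3 stages, on the deposited and on the main scale. As scaled levels from E11 to E16, miR-1224 was at 0.63, -0.22, 1.33 and -0.78, and miR-2861 at -1.68, -2.43, -1.16 and -2.75. The other 3 stages thus lay close together in deposited signal but fell with age on the main scale. miR-1187 had 13.2, 16.7, 133.1 ± 10.8 and 62.9 ± 7.39 (-1.44 ± 0.21) and stayed 1.15 ± 0.45 above E12. miR-3470a (-1.54), miR-1982* (-1.86) and miR-3072* of the Dlk1-Dio3 region (-1.51) were also among the 15 largest. At the threshold, miR-467b (-1.13) and miR-487b (-1.02) lay just inside, and miR-130b* (-0.97) and miR-139-3p (-0.96) just outside.

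The rodent miR-297, miR-466, miR-467 and miR-669 families, grouped here by name alone, had the lowest median of the lists outside the entries read apart. Of 41 probes, 8 were detected on both arrays, and 4 of these were lower and 0 higher, beside 9.09% lower and 7.73% higher among all names not read apart. The median was -1.03 (-1.39 to -0.67 over the scalings). miR-466i was at 73.1 ± 7.35 and 23.9 ± 4.77 (-1.97 ± 0.32), miR-466f-3p at 38.7 ± 3.78 and 13.8 ± 2.49 (-1.84 ± 0.30) and miR-467f at 132.5 ± 11.0 and 60.5 ± 7.42 (-1.49 ± 0.21). Another 3 members were detected at E14 alone and 1 at E16 alone. Members of these families are near copies of each other, and sharing of signal between their probes was not tested.

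All 11 detected entries among miR-2132 to miR-2146 and miR-689 were lower at E16, by -2.69 to -1.44 (median -2.08), beside 9.09% lower among the other names. miR-2141 had signals of 3914, 3841, 26626 ± 2060 and 6546 ± 505.5, from E11 to E16 (-2.38 ± 0.16), and 0.00 ± 0.16 from E12 to E16. miR-2140 had 1416, 1189, 13567 ± 995 and 2696 ± 200.6 (-2.69 ± 0.15), miR-2138 2104, 1970, 7163 ± 538 and 1919 ± 144 (-2.26 ± 0.15). miR-689 had 79.3, 75.7, 747 ± 54.9 and 217.5 ± 17.0 (-2.14 ± 0.15), and miR-2134 349, 256.4, 1935 ± 153 and 564.2 ± 44.1 (-2.13 ± 0.16). Each of these 5 was highest at E14 on the deposited scale. From E12 to E14 the 11 differed by 0.73 to 3.39 and from E12 to E16 by -0.84 to 1.96, with 10 of 11 within 2-fold in the latter. The E14 array is shared by the first and the main comparison, so the values are not independent. miR-2146 came under 2-fold with quantile normalization (-0.94), and the other 10 passed under all scalings.

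The other miRNAs that were lower ran a similar course. Of the 20, 16 had their highest scaled level at E14. Of the 17 also detected at E12, 14 were at least 2-fold higher at E14 than at E12 (median 1.72), against 8.46% of all names not read apart. Between E12 and E16, 13 of the 17 were within 2-fold (median -0.32), and the share of all names is not given here. The 20 were chosen for a level at E14 at least 2-fold above that at E16. None could therefore be highest at E16, and the rise from E12 uses the same E14 values. Of 6 control features detected on both arrays, 5 differed by -0.07 to 0.09 on the unscaled log2 scale. The sixth, hur_6, was at 60407, 40693, 109779 and 53994 at E11, E12, E14 and E16, a difference of -1.02 from E14 to E16. The tRNA-fragment entries miR-720, miR-1937b, miR-1937c and miR-1274a did not follow, with 0 of 4 past 2-fold and a median of -0.31. The part of the E14 array itself in these differences was not tested.

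**Figure D4:**
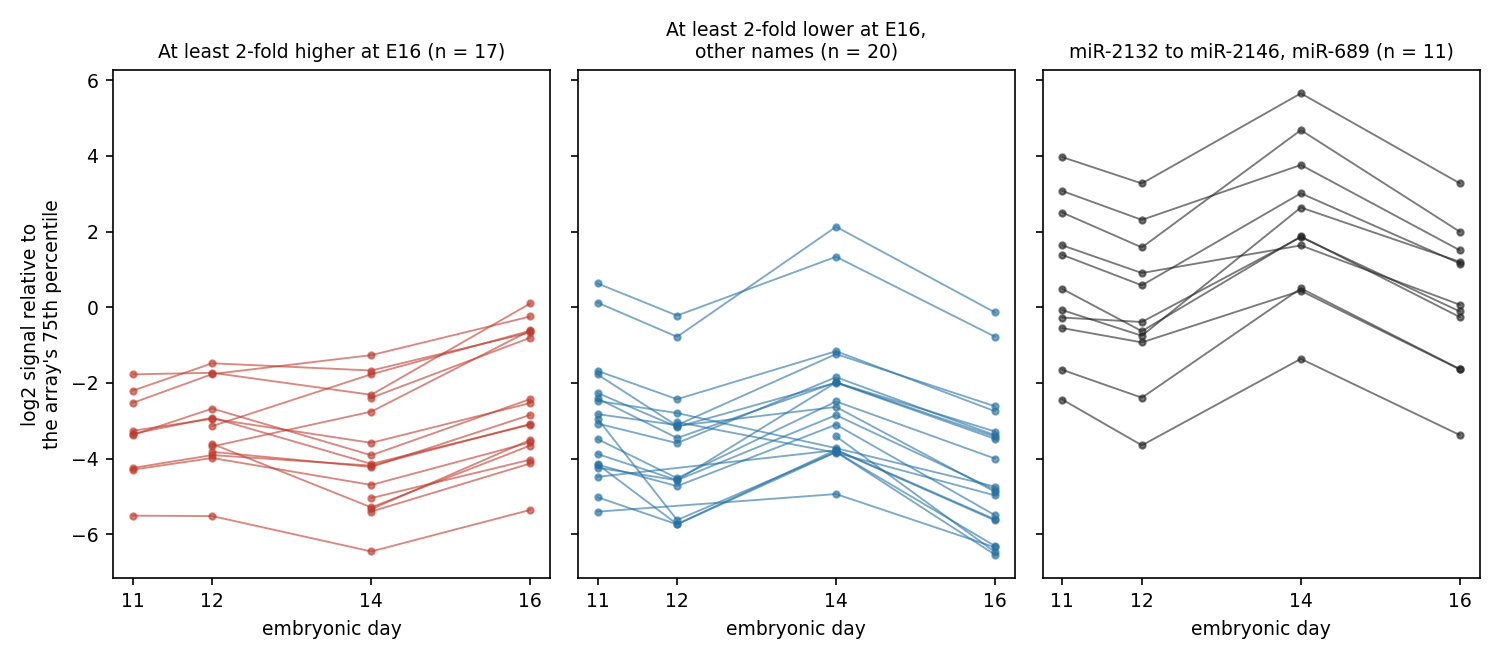
Scaled log2 level of each called miRNA at E11, E12, E14 and E16, 1 array per stage and 1 line per miRNA; a missing point is a miRNA not detected. Of the 17 higher, 15 were at their highest at E16 (left), while 16 of the 20 lower (middle) and 10 of the 11 entries read apart (right) were at their highest at E14. The calls compare E16 with E14, so no higher miRNA could be highest at E14 and no lower one at E16.

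The median base composition differed between the called groups. Over the names not read apart, the median G+C content of the mature sequence was 40.9% for those higher at E16 (14 of 17 with a sequence), 46.7% for those within 2-fold (152 of 183) and 61.9% for those lower (16 of 20; 60.5% with the other arm of miR-1982* and miR-3072*, whose arm is uncertain). Among 24 miRNAs of at least 60% G+C, 9 were lower and 0 higher, with a median of -0.71. Among 77 of 40% up to 50%, 11 were higher and 2 lower, with a median of 0.16. The 34 miRNAs under 40% held 2 higher and 4 lower, and their median was 0.32. Across the 182 miRNAs with a sequence the difference had a Pearson r of -0.48 and a Spearman rho of -0.46 with G+C content. For the difference E14 minus E12, which uses the same E14 array, the Pearson r had the opposite sign, 0.34 over 165 miRNAs. These points share 2 arrays, their probes and, in families, much of their sequence, so the correlation is a description, and the part of base composition in the differences was not tested. For length the Pearson r was 0.05. The ranges overlap, 27.3% to 56.5% for the higher and 34.8% to 94.7% for the lower miRNAs. The lower ones under 50% were miR-1187 (34.8%), miR-466i (36.4%), miR-706 (36.4%), miR-467f (38.1%), miR-494 (45.5%) and miR-574-5p (47.8%), 6 of the 16, and the higher one over 50% was miR-503 (56.5%).

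**Figure D5:**
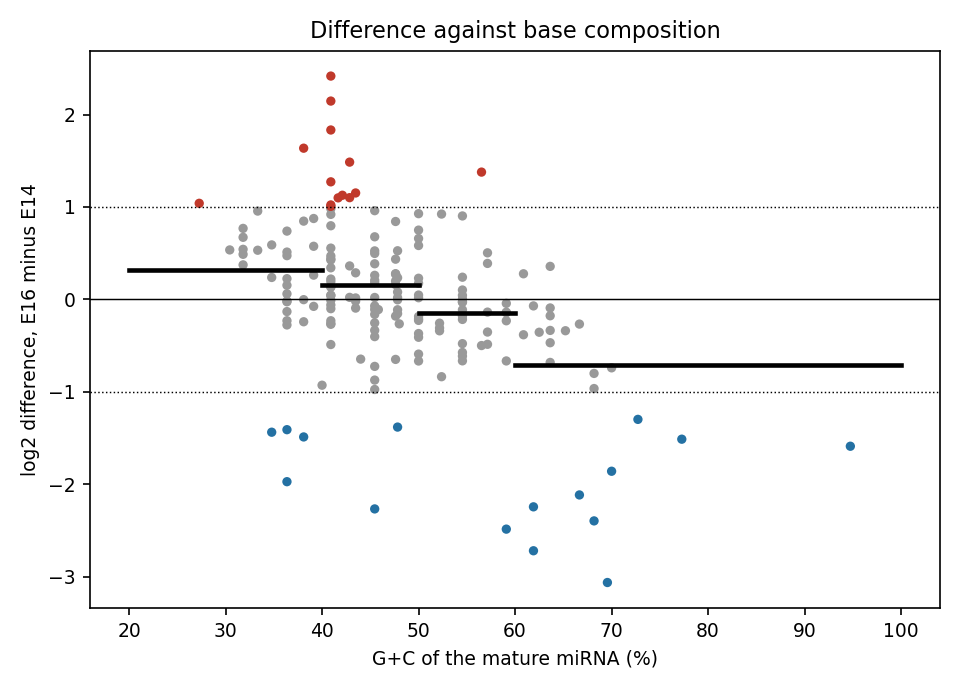
Log2 difference, E16 minus E14, against the G+C content of the mature miRNA for 182 miRNAs not read apart; thick black bars are medians for under 40%, 40% to 50%, 50% to 60% and at least 60% G+C, dotted lines 2-fold, and red and blue points pass it. The medians run from 0.32 through 0.16 and -0.14 to -0.71.

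A further 19 miRNAs passed detection on the E16 array but not on the E14 array. After miR-136, the highest were miR-193 (77.7 ± 8.78, at least 10.7-fold higher), the blood-cell miR-142-3p (64.4 ± 7.52, 8.84-fold), the neural miR-137 (47.5 ± 6.76, 6.53-fold), miR-29c, miR-362-3p (38.6 ± 6.48, 5.30-fold), miR-136* (20.9 ± 4.64, 2.88-fold) and miR-326 (19.9 ± 4.597, 2.74-fold). miR-137 had been detected at E12 at 59.2, so it was missing at E14 alone of the last 3 stages. The converse held for 18, of which the highest was miR-1897-3p, at 48.9 ± 6.08 and at least 9.61-fold lower at E16, followed by miR-1894-3p (36.8 ± 5.67, 7.24-fold) and miR-680 (33.3 ± 3.93, 6.55-fold). The next were miR-1940 (29.1 ± 5.41, 5.71-fold), miR-714 (27.4 ± 3.21, 5.39-fold), miR-705 (22.6 ± 3.34, 4.44-fold), miR-466c-5p (16.5 ± 3.92, 3.25-fold) and miR-466g (16.4 ± 2.76, 3.21-fold). These 8 were undetected at E11 and E12 too, so they were seen on the E14 array alone. All these bounds are nominal, since the detection limit of a probe also depends on its own error.

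Markers of the tissue and of other cell types were read beside these results. Their sums are of deposited signals, in which the E16 array stood 0.36 above the E14 array on the log2 scale by the main scaling. Median differences are scaled. The epithelial markers, 7 of 7 detected at both stages, had summed deposited signals of 5363 and 9364 with a median difference of 0.55. The mesenchymal markers, 6 of 7 detected with miR-145 undetected, had 11210.5 and 12870 with a median difference of -0.04. Muscle markers were undetected on both arrays (0 of 7). Blood markers were higher in deposited signal at E16. The erythroid list had 665 and 1230 (miR-451, 0.51 ± 0.15; miR-144 at E16 alone and miR-486 undetected). The leukocyte list had 32.6 and 164.7, with 1 of 6 detected at E14 and 3 of 6 at E16, and miR-142-5p, miR-150 and miR-155 undetected on both. Endothelial miR-126-3p was at 411 and 757 (0.52 ± 0.15). Of 8 neural markers 2 were detected at E14 and 4 at E16, with summed signals of 125.5 and 215.7, while miR-9, miR-9*, miR-124 and miR-132 were undetected. The 2 neural markers on both arrays had a median difference of -0.10. The sensory ganglion markers, 3 of 3 detected at both stages, had summed signals of 860 and 1284 with a median difference of -0.26. The part of blood, vessel or nerve cells in the differences above was not tested.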

How the data were processed

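Total RNA of mandibular molar tooth germs, 100 ng a stage, was labelled with Cy3 and hybridised to 1-colour Agilent miRNA arrays, per the labels' protocols. The authors deposited, per the file headers, a total gene signal and its error per miRNA as intensity on a linear scale and a detection flag; undetected values are written as 0.1. The scanner software, the array's design and how background was treated are details not given in the sources used here. The authors' series table equals these intensity values after quantile normalization (all detected values within 0.1%).

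Here log2 signals were taken relative to each array's 75th percentile over the 197 miRNAs detected on all 4 arrays. The ± combines the deposited errors of both arrays, on the log2 scale. A difference has no replicate check, and the number of arrays limits the precision. Another 7 scalings, a filter at a signal of 20 and other fold limits were tried. Named miRNAs are the 15 largest differences each way outside miR-2132 to miR-2146 and miR-689, the 5 largest of those entries, the 8 of highest level each way on 1 array, members of 35 lists and the names next to the threshold. Members and lists were chosen with earlier results of these data known; lists were assembled from general knowledge, as was the arm for names that give none. Of the 268 names detected on either array, 211 matched a RefSeq mature sequence (GRCm38.p6). The arithmetic of the scaling was checked on copies of the E14 signals with set changes and no noise. That check cannot show whether the offset between the real arrays is right. Python 3.11.15, pandas 2.3.3, numpy 2.4.6 and matplotlib 3.10.9 were used.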

Additional observations from a re-analysis of the deposited data

How the results depend on the processing

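The counts of 17 higher and 31 lower and the median of -0.06 turn on the scaling. The number higher was 28 with the 75th percentile over all probes, 30 with scaling to the median and 36 unscaled; the median was 0.19 and 0.30 under the last 2. With the percentile over the miRNAs on both arrays, 7 were higher and 50 lower (median -0.41), and without the entries read apart in it, 7 and 52 (median -0.42). These shifts follow from the offsets between the arrays, which ran from 0 to 0.72 on the log2 scale. At 1.5-fold 37 were higher and 54 lower, at 3-fold 5 and 20, and 20 were lower without the entries read apart and the tRNA-fragment entries. With a signal of at least 20 required on both arrays, 12 were higher and 24 lower. Under quantile normalization and the authors' series table the counts were 20 and 29. None of the 30 largest differences or the 11 entries read apart changed sign under the 7 other scalings. The 30 were picked for their size, at least 1.02 either way under the main scaling, and the entries differed by more. With offsets of 0 to 0.72 this outcome was nearly fixed in advance. The medians of up to 9 of 32 lists did change sign, on the deposited signals.

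No paired analysis was possible because each stage has 1 array and the labels carry no replicate numbers. Differences of dim miRNAs are limited by their signal, with errors of up to 33.3% of it at E16, and how levels vary between litters was not measured.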
